A study of Homo sapiens with 6 samples.

Results

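The annexins are a family of calcium-dependent membrane-binding proteins, and 10 annexin genes (ANXA1 to ANXA8, ANXA10 and ANXA11) were followed here among the 60612 gene identifiers of an RNA-sequencing experiment on MDA-MB-231 cells. They were taken by gene symbol, as a family chosen with earlier results of these data known, and the value of a gene was the sum of all its transcript rows. MDA-MB-231 is an established human cell line of triple-negative breast cancer (TNBC), a class that lacks the estrogen, progesterone and HER2 receptors. The control group stably expressed a control short hairpin RNA (Sh-NC, labelled wild type), and the other group stably expressed a hairpin against YAP1 (Sh-YAP1, labelled as a knockdown). Both groups were otherwise untreated, were taken on day 3 and had 3 libraries each. The comparison asks which annexin transcripts differ when YAP1, a transcriptional co-activator of the Hippo pathway, is depleted. Nothing in the labels says whether the 3 libraries of a group came from separate cultures, so the p-values measure only the spread between these libraries.

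Every annexin carries a conserved core of repeated domains that binds acidic phospholipids of membranes when calcium rises, and a variable amino-terminal end that binds other proteins. Members are recruited to torn plasma membranes, link membranes to the actin cytoskeleton, and take part in endocytosis, exocytosis and calcium signalling. In carcinoma cells the family is best known for ANXA1, a mediator that dampens inflammation, for ANXA2, which binds plasminogen activators at the cell surface, and for ANXA5, the protein used as a probe of phosphatidylserine on dying cells.

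Expression was deposited as FPKM (fragments divided by transcript length and by the mapped fragments of the library), and no counts come with it. Library depth is therefore not known, and errors are those between replicate libraries. The FPKM of a library added up to 467493 to 475116, and 13037 to 13219 genes reached 1 FPKM. YAP1, the targeted gene, was at 28.1, 26.2 and 22.9 FPKM in Sh-NC libraries 1 to 3 and at 3.35, 2.67 and 2.58 FPKM in Sh-YAP1 libraries 1 to 3. Mesenchymal VIM ranged from 1645 to 2303 FPKM and EGFR from 48.6 to 73.5 FPKM, whereas ESR1 was at most 0.07 FPKM and PGR at most 0.01 FPKM. ERBB2, the gene of HER2, was at 14.3 to 18.1 FPKM. The label calls the cells epithelial, and the epithelial keratins KRT8, KRT18 and KRT19 ranged from 99.9 to 193 FPKM, while the epithelial cadherin CDH1 was at most 0.49 FPKM. The summed level of 4 leukocyte markers was at most 1.61 FPKM, with CD3E listed at 0, and that of 6 endothelial and fibroblast markers was at most 11.6 FPKM. The 7 luminal epithelial markers summed to 430 to 492 FPKM in Sh-NC, against 356 to 386 FPKM in Sh-YAP1, and all 6 that were tested were lower, 3 without overlap. Of the 6, KRT19 was the 1 called (log2 fold change -0.50, adjusted p = 0.0273, limma), beside 3.38% of all genes tested, and 3 were at an unadjusted p under 0.05. The groups did not overlap for 29.4% of all genes tested, and 3241 of 14770 were at an unadjusted p under 0.05 (limma). The 4 markers of triple-negative lines, VIM, CD44, EGFR and CAV1, were all lower in Sh-YAP1 too. None of these 4 was called, 1 was without overlap and 1 was at an unadjusted p under 0.05 (limma). Their median log2 fold change was -0.17, beside -0.21 for the 6 luminal markers tested. The part of these differences in the annexin values was not tested. In bulk RNA, fewer cells of a type and less RNA per cell cannot be told apart.

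Together the 10 annexins made up 0.524%, 0.529% and 0.548% of all FPKM in Sh-NC libraries 1 to 3, and 0.456%, 0.503% and 0.454% in Sh-YAP1 libraries 1 to 3. The Sh-NC libraries held 2520 ± 76.7 FPKM of annexins and the Sh-YAP1 libraries 2221 ± 129 FPKM (SD, n = 3 each), and the groups did not overlap. ANXA2 alone held 60.7% to 67.7% of that sum. Without ANXA2, the remaining 9 genes summed to 809, 892 and 841 FPKM in Sh-NC and to 758, 852 and 838 FPKM in Sh-YAP1, which overlap. Of the difference of -299 FPKM between the group means, -268 FPKM was in ANXA2.

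Since FPKM is scaled to transcript length, the levels of different annexins can be put in order. In Sh-NC the order of the means was ANXA2 (1672 FPKM), ANXA1 (247 FPKM), ANXA5 (243 FPKM), ANXA3 (144 FPKM), ANXA6 (113 FPKM), ANXA7 (44.0 FPKM), ANXA11 (38.8 FPKM), ANXA4 (14.9 FPKM), ANXA8 (2.05 FPKM) and ANXA10 (0.02 FPKM). The ranges of ANXA1 and ANXA5 overlapped, as did those of ANXA7 and ANXA11, so these neighbours did not differ beyond their spread, while each other step in the order had no overlap. In Sh-YAP1 no neighbours overlapped. ANXA3 and ANXA6 traded places, with ANXA6 above ANXA3 in Sh-YAP1. The ratio of the ANXA3 level to the ANXA6 level was 1.182, 1.0997 and 1.628 in Sh-NC and 0.579, 0.693 and 0.727 in Sh-YAP1, a description of a pair noticed in the values and not tested.

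**Figure D1:**
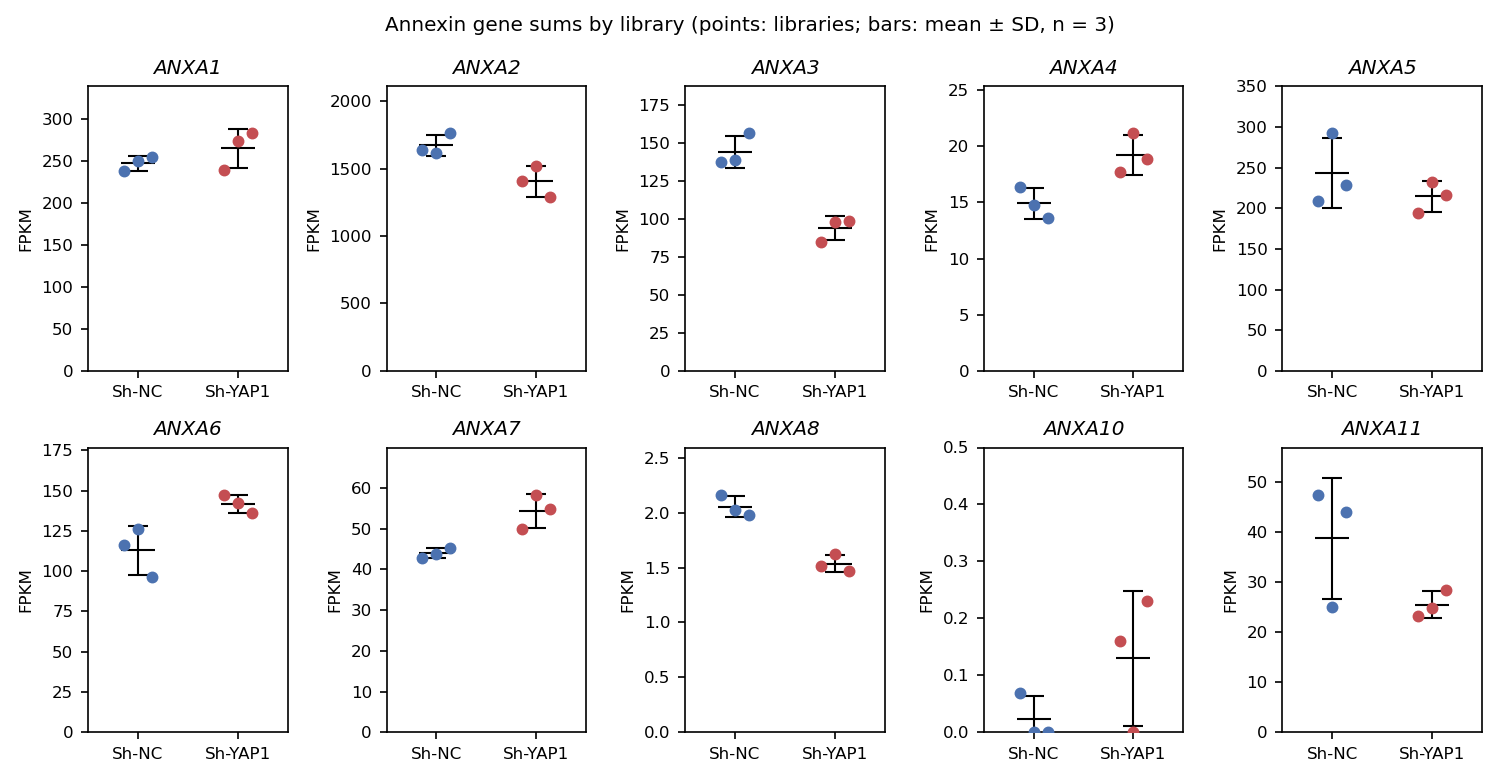
FPKM (vertical axis, linear, from 0, scaled per gene) of each annexin, Sh-NC on the left and Sh-YAP1 on the right. Points are libraries, and bars give the mean and SD of 3 libraries. ANXA2, ANXA3 and ANXA8 are lower in every Sh-YAP1 library than in every Sh-NC library, ANXA4, ANXA6 and ANXA7 are higher in every one, and ANXA1, ANXA5, ANXA10 and ANXA11 overlap.

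Differences were tested on the log2(FPKM + 1) scale with limma across the 14770 genes that averaged 0.5 FPKM or more, and a gene was called at an adjusted p under 0.05 (Benjamini-Hochberg over all these genes). On that scale a fold change understates the change of genes with low values. Of the 10 annexins 9 passed the filter, and 1 of the 9 was called, ANXA3, lower in Sh-YAP1. Across all genes tested, 3.38% were called, 1.75% higher in Sh-YAP1 and 1.62% lower. The groups did not overlap for 6 of the 9 annexins, 3 higher and 3 lower, against 29.4% of all genes tested. At an unadjusted p under 0.05 (limma) there were 6 of the 9 annexins and 3241 of the 14770 genes. The median log2 fold change of the 9 annexins was -0.17, beside -0.0014 over all genes tested. The annexin median was -0.033 without Sh-NC 2 and -0.056 with quantile normalization.

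ANXA3 was downregulated in Sh-YAP1. This annexin is known as an inhibitor of phospholipase A2 in vitro and as a protein that aggregates the granules of neutrophils. ANXA3 (ENSG00000138772, plus strand of chromosome 4, 78551519 to 78610451 of GRCh38) was at 137, 139 and 156 FPKM in Sh-NC libraries 1 to 3. It was at 85.2, 98.4 and 98.8 FPKM in Sh-YAP1 libraries 1 to 3. Every Sh-YAP1 library was below every Sh-NC library, and the gap between the groups was wider than the range within either. The mean fell from 144 ± 10.5 FPKM to 94.1 ± 7.75 FPKM (SD, n = 3 each), a ratio of 0.653. The log2 fold change was -0.61 (standard error 0.09, 95% interval -0.83 to -0.40, adjusted p = 0.0245, limma), the smallest p of the annexins. Permuting the 6 values (exact, two-sided) gave p = 0.1, the smallest that 3 libraries against 3 allow. The call ended when any 1 of the 6 libraries was left out (log2 fold change -0.65 to -0.54, adjusted p 0.0573 to 0.0810, limma) and when no filter on low values was used (adjusted p = 0.123, limma).

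ANXA2, the most abundant annexin, forms a heterotetramer with S100A10 that holds plasminogen and its activator at the cell surface and organises membrane-linked actin. ANXA2 (ENSG00000182718, minus strand of chromosome 15, 60347134 to 60402883 of GRCh38) was at 1639, 1617 and 1760 FPKM in Sh-NC. In Sh-YAP1 it was at 1406, 1516 and 1291 FPKM. The groups did not overlap, every Sh-YAP1 library being under the lowest Sh-NC library. The means were 1672 ± 76.7 FPKM and 1405 ± 112 FPKM (SD, n = 3 each), a ratio of 0.840. With a log2 fold change of -0.25 (standard error 0.08, 95% interval -0.45 to -0.06, adjusted p = 0.141, limma), ANXA2 did not pass the test. The 4 reference genes GAPDH, ACTB, TBP and PPIA, none of them called, had log2 fold changes of -0.13, -0.06, -0.17 and -0.21. For 3 of these 4 the groups did not overlap either, all lower in Sh-YAP1, and 1 was at an unadjusted p under 0.05 (limma). Across all genes tested the shares were 29.4% without overlap and 3241 of 14770 at an unadjusted p under 0.05 (limma).

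Reads of ANXA2 and ANXA8 can be shared with near-identical copies elsewhere in the genome. This bears on their values, on those of the copies, and on sums and ratios that include them. Only unchanged stretches of a single coding sequence per gene were searched for, among annotated transcripts. Over the coding sequences of GENCODE 29, 31.2% of the 100-base windows of ANXA2 and 70.2% of those of ANXA8 occur unchanged in a transcript of another gene, whereas for each of the other 8 members the share was 0%. With 50-base windows the shares were 59.2% for ANXA2 and 82.5% for ANXA8, and again 0% for the others. The read length is not given in the sources used here. The processed pseudogene ANXA2P2 on chromosome 9 (33624274 to 33625293, plus strand, GRCh38) differs from ANXA2 at 16 of 1020 coding bases (98.4% identity). ANXA8L1 on chromosome 10 (46375627 to 46391784, plus strand, GRCh38) differs from ANXA8 (47460162 to 47484158, minus strand) at 5 of 984 coding bases (99.5% identity). A stretch of 60 coding bases is shown for each pair, to show how few bases tell the copies apart. It had the most differences among stretches started at regular steps along the coding sequence. Capitals mark the differing bases. Positions count from 1 at the first base of the start codon, 161 to 220 for the first pair and 471 to 530 for the second.
ANXA2: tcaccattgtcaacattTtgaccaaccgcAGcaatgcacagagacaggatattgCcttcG
ANXA2P2: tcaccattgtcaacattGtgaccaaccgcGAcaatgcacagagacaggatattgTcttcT
ANXA8: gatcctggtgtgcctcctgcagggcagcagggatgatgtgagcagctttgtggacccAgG
ANXA8L1: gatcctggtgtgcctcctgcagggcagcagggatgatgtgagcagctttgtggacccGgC
The first stretch holds 5 of the 16 differences and the second holds 2 of the 5.

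ANXA2P2 was listed at 170, 171 and 184 FPKM in Sh-NC, against 140, 145 and 144 FPKM in Sh-YAP1, without overlap. Its log2 fold change was -0.29 (adjusted p = 0.0647, limma). In every library its level was between 9.59% and 11.1% of the ANXA2 level. That share was 10.5 ± 0.11% in Sh-NC and varied more in Sh-YAP1, at 10.2 ± 0.82% (SD, n = 3 each). How the reads were divided between the gene and its pseudogene is not given in the sources used here, so the split between them is uncertain. Their sum was 1847 ± 84.6 FPKM in Sh-NC and, in Sh-YAP1, 1548 ± 113 FPKM (SD, n = 3 each).

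ANXA4, ANXA6 and ANXA7 were higher in every Sh-YAP1 library than in every Sh-NC library, and none of them passed the test. ANXA4 (ENSG00000196975, chromosome 2), an annexin of epithelial membranes, was at 16.4, 14.8 and 13.6 FPKM in Sh-NC. It was at 17.7, 21.1 and 18.8 FPKM in Sh-YAP1. The step from the highest Sh-NC to the lowest Sh-YAP1 library was small beside the range within each group. The log2 fold change was 0.34 (standard error 0.10, 95% interval 0.10 to 0.59, adjusted p = 0.119, limma), with means of 14.9 ± 1.40 and 19.2 ± 1.75 FPKM (SD, n = 3 each). Part of ANXA4 overlaps AAK1 on the opposite strand, and whether the counting used strand is not given in the sources used here. AAK1 went the other way, with a log2 fold change of -0.21 (adjusted p = 0.453, limma).

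ANXA6 (ENSG00000197043, chromosome 5) is the large annexin with a doubled core, which binds cholesterol-rich membranes and acts as a scaffold for signalling proteins. Its level was 116, 126 and 96.1 FPKM in Sh-NC. In Sh-YAP1 it was 147, 142 and 136 FPKM. All Sh-YAP1 libraries lay close together, above a wider Sh-NC group. The means were 113 ± 15.4 and 142 ± 5.66 FPKM (SD, n = 3 each), and the log2 fold change was 0.33 (standard error 0.11, 95% interval 0.07 to 0.59, adjusted p = 0.146, limma).

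ANXA7 (ENSG00000138279, chromosome 10), also called synexin, promotes membrane fusion during secretion. It was at 42.8, 43.9 and 45.3 FPKM in Sh-NC. It was at 49.9, 58.3 and 54.9 FPKM in Sh-YAP1. Here the Sh-NC libraries were tightly grouped, and all of the Sh-YAP1 libraries were above them. The means were 44.0 ± 1.22 and 54.3 ± 4.24 FPKM (SD, n = 3 each), and the log2 fold change of 0.30 (standard error 0.08, 95% interval 0.11 to 0.48) gave the smallest adjusted p of the annexins that were not called (0.0959, limma).

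ANXA1 and ANXA5, next to ANXA2 in level, did not differ beyond the spread between libraries. ANXA1 (ENSG00000135046, chromosome 9), the glucocorticoid-induced ligand of formyl peptide receptors, was at 237, 250 and 255 FPKM in Sh-NC. It was at 239, 273 and 282 FPKM in Sh-YAP1. The lowest Sh-YAP1 library sat beside the lowest Sh-NC library, so the groups overlapped (exact two-sided permutation p = 0.3). The log2 fold change was 0.10, with a 95% interval from -0.10 to 0.29 and an adjusted p of 0.541 (limma). It was 0.17 without Sh-YAP1 1, 0.048 without Sh-YAP1 3 and 0.20 with quantile normalization, with none called.

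ANXA5 (ENSG00000164111, chromosome 4), which coats exposed phosphatidylserine, was at 209, 292 and 229 FPKM in Sh-NC. It was at 195, 232 and 217 FPKM in Sh-YAP1. A single library, Sh-NC 2, stood above the rest, and the other 5 libraries were mixed between the groups. The log2 fold change was -0.17 with a 95% interval from -0.50 to 0.16 (adjusted p = 0.512, limma), and it was -0.27 without Sh-NC 1 and -0.03 without Sh-NC 2.

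ANXA11 (ENSG00000122359, chromosome 10), which tethers RNA granules to lysosomes and is mutated in some motor neuron disease, was at 47.4, 24.96 and 44.0 FPKM in Sh-NC. It was at 23.3, 24.8 and 28.5 FPKM in Sh-YAP1. Sh-NC 2 lay inside the Sh-YAP1 range, whereas Sh-NC 1 and 3 lay well above it. The log2 fold change of -0.54 was second in size to that of ANXA3 among the 9 annexins. It came with the widest interval (standard error 0.24, 95% interval -1.11 to 0.03, adjusted p = 0.251, limma). Without Sh-NC 1, 2 or 3 in turn the log2 fold change was -0.37, -0.82 and -0.42 (adjusted p = 0.480, 0.0531 and 0.427, limma).

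At the low end, ANXA8 (ENSG00000265190, chromosome 10), described as an anticoagulant annexin of epithelia, was at 2.16, 2.02 and 1.98 FPKM in Sh-NC. It was at 1.51, 1.62 and 1.47 FPKM in Sh-YAP1. The groups were tight and did not overlap, with means of 2.05 ± 0.09 and 1.53 ± 0.08 FPKM (SD, n = 3 each). The log2 fold change was -0.27 (95% interval -0.48 to -0.05, adjusted p = 0.152, limma). With 0.1 or 0.01 FPKM added before the logarithm, in place of 1, it was -0.40 and -0.42, not called either. Its copy ANXA8L1 was at 1.01, 1.16 and 1.5 FPKM in Sh-NC, against 0.84, 0.87 and 1.06 FPKM in Sh-YAP1, a log2 fold change of -0.20 (adjusted p = 0.379, limma). Another annotated locus with the same stretches, AC244230.1, overlaps ANXA8L1 and was listed at 0 in every library. ANXA8 and ANXA8L1 summed to 3.28 ± 0.18 FPKM in Sh-NC and, in Sh-YAP1, to 2.46 ± 0.09 FPKM (SD, n = 3 each), again without overlap.

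ANXA10 (ENSG00000109511, chromosome 4), an annexin of gastric epithelium, was under the filter and was not tested. It was listed at 0.07, 0 and 0 FPKM in Sh-NC, against 0.16, 0 and 0.23 FPKM in Sh-YAP1, in 2 rows of at most 0.16 FPKM each. Among the annexin loci outside the 10 members, 4 of 7 were tested and none was called (2 at an unadjusted p under 0.05, limma). Besides ANXA2P2 and ANXA8L1 these were the pseudogene ANXA2P1 and ANXA9, named after their values were seen. ANXA9 was at 1.92, 1.71 and 1.5 FPKM in Sh-NC, against 2.90, 2.50 and 2.25 FPKM in Sh-YAP1, without overlap (log2 fold change 0.39, adjusted p = 0.119, limma).

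**Figure D2:**
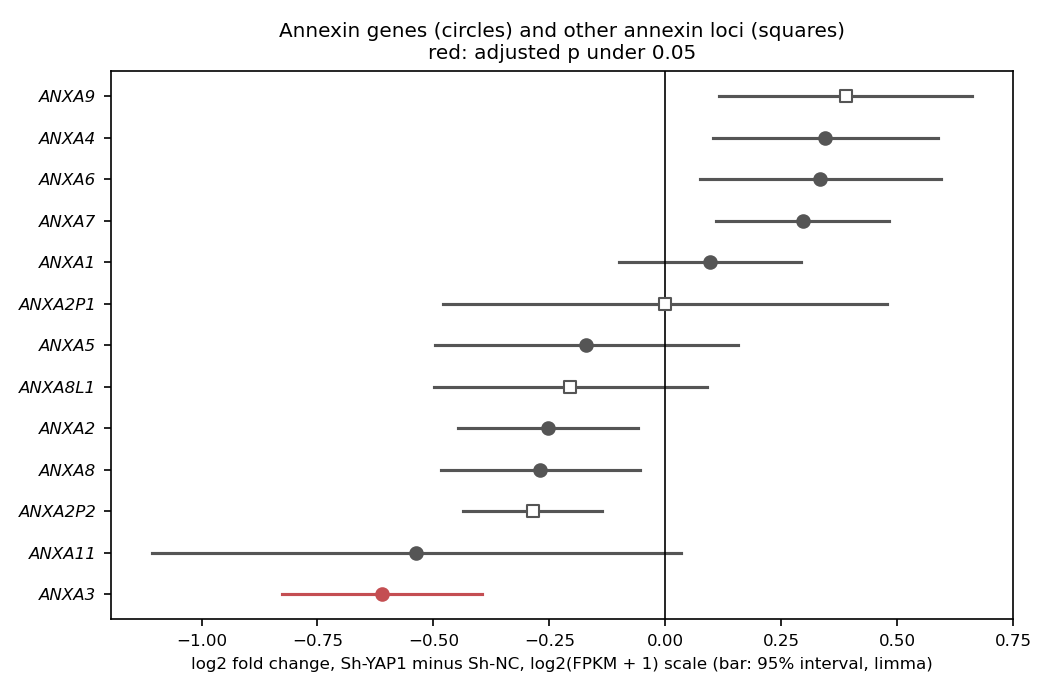
Log2 fold change (horizontal axis, Sh-YAP1 minus Sh-NC on the log2(FPKM + 1) scale) with its 95% interval from limma for 9 annexins (circles) and 4 other annexin loci (squares), 3 libraries per group. ANXA3, in red at -0.61, is the one gene called. The intervals of ANXA1, ANXA5, ANXA11, ANXA8L1 and ANXA2P1 include 0.

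The files list 120 transcript rows for the 10 genes, and the rows show how each gene value was assembled. Rows carry no transcript identifier, so they are described by their share of the gene. Of the 120 rows 88 reached a mean of 0.1 FPKM and were tested, 36 of them higher and 52 lower in Sh-YAP1 by log2 fold change (37 and 51 by the group means in FPKM). None was called, and 5 had an unadjusted p under 0.05 (limma). Across all 77655 rows tested, 0.0515% were called.

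For ANXA1 a single row held 95.02% to 96.08% of the gene in every library, so the gene value rested on one row. It was at 228, 240 and 244 FPKM in Sh-NC, against 228, 261 and 268 FPKM in Sh-YAP1, with overlap. ANXA7 also rested mainly on one row, with 74.9% to 92.8% of the gene. That row was at 36.7, 40.2 and 42.0 FPKM in Sh-NC, against 46.2, 43.6 and 50.7 FPKM in Sh-YAP1, without overlap, as the gene was. A smaller ANXA7 row stood at 11.9 FPKM in Sh-YAP1 2 and between 2.39 and 3.95 FPKM in the other 5 libraries. The leading row of ANXA6 held 51.4% to 80.7% of the gene and was likewise higher in every Sh-YAP1 library, at 80.2, 64.9 and 77.5 FPKM against 85.3, 95.2 and 86.8 FPKM. The next ANXA6 row, at 33.4, 54.2 and 15.96 FPKM in Sh-NC, against 57.9, 38.2 and 42.4 FPKM in Sh-YAP1, overlapped.

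The leading row of ANXA2 held 69.2% to 84.5% of the gene. It was at 1134, 1348 and 1370 FPKM in Sh-NC, against 1064, 1074 and 1092 FPKM in Sh-YAP1, without overlap (log2 fold change -0.25, adjusted p = 0.688 over all rows, limma). Each other ANXA2 row held under 10% of the gene in the mean of both groups, and 3 of them are given because their values, once seen, differed widely between libraries. The largest of these was at 140, 55.6 and 242 FPKM in Sh-NC, against 156, 183 and 3.01 FPKM in Sh-YAP1. Another reached 141 FPKM in Sh-NC 1, reached 57.0 FPKM in Sh-YAP1 1 and was listed at 0 in the other 4 libraries. The last was at 118 FPKM in Sh-YAP1 2, at 35.2 and 15.3 FPKM in Sh-NC 1 and 2, and at 0 elsewhere.

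The value of ANXA3 was divided over 5 rows, each with at least 10% of the gene in the mean of either group, and the division differed between libraries. Its leading row was at 14.5, 74.4 and 70.1 FPKM in Sh-NC, against 2.95, 43.5 and 45.8 FPKM in Sh-YAP1, that is 3.46% to 53.6% of the gene. Another row held 39.5 FPKM in Sh-NC 1 and, in Sh-YAP1 1, 52.5 FPKM, but between 1.38 and 12.9 FPKM in the other 4 libraries. The leading row was therefore low in the libraries where this row was high. The other 3 rows were at 21.0, 28.6 and 33.8 FPKM, at 32.2, 19.4 and 24.7 FPKM and at 29.6, 0 and 14.9 FPKM in Sh-NC. Their Sh-YAP1 values were 18.5, 15.2 and 25.2 FPKM, 9.99, 21.4 and 15.7 FPKM, and 0, 14.2 and 4.59 FPKM. All 5 rows overlapped between the groups, and 7 of the 8 rows tested were lower in Sh-YAP1 by log2 fold change, 6 of them also by the group means. The coefficient of variation of the leading row was 63.1% in Sh-NC and 78.4% in Sh-YAP1, whereas that of the gene was 7.31% and 8.24%.

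A similar exchange was present in ANXA5. A row that led in 4 libraries (234, 162, 163 and 150 FPKM) held 48.8 FPKM in Sh-NC 1 and, in Sh-YAP1 3, 49.9 FPKM. In those libraries another row was at 123.04 and 116.46 FPKM, and it was at most 7.01 FPKM elsewhere. The remaining main row, at 31.6, 50.3 and 56.8 FPKM in Sh-NC, against 25.3, 72.1 and 45.7 FPKM in Sh-YAP1, overlapped. The gene value of ANXA5 varied less than its leading row, with coefficients of variation of 17.7% against 63.0% in Sh-NC and 8.83% against 51.2% in Sh-YAP1.

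For ANXA11 one row held most of the group difference. It was at 25, 2.23 and 25.45 FPKM in Sh-NC, against 1.62, 4.86 and 3.77 FPKM in Sh-YAP1, so the high values came from Sh-NC 1 and 3. The row with the highest mean over all 6 libraries, though not in Sh-NC alone, was at 11.3, 14.3 and 10.7 FPKM in Sh-NC, against 15.6, 11.2 and 20.9 FPKM in Sh-YAP1, which overlap. A smaller ANXA11 row, at 5.84, 5.01 and 5.19 FPKM in Sh-NC, against 2.64, 6.91 and 2.80 FPKM in Sh-YAP1, overlapped as well.

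In ANXA8 one row at 1.78, 1.71 and 1.77 FPKM carried 85.4% of the Sh-NC mean. In Sh-YAP1 it was at 0.19, 1.44 and 0 FPKM. A second row was listed at 0 in all Sh-NC libraries and at 1.17, 0 and 0.54 FPKM in Sh-YAP1. Another was at 0.55 FPKM in Sh-YAP1 3 and at most 0.08 FPKM elsewhere. The rows thus differed among the Sh-YAP1 libraries more than the gene did. ANXA4 had a leading row at 6.19, 13.1 and 11.4 FPKM in Sh-NC, against 16.01, 16.92 and 14.73 FPKM in Sh-YAP1, without overlap. A second ANXA4 row was at 8.58 FPKM in Sh-NC 1 and at most 1.80 FPKM elsewhere.

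**Figure D3:**
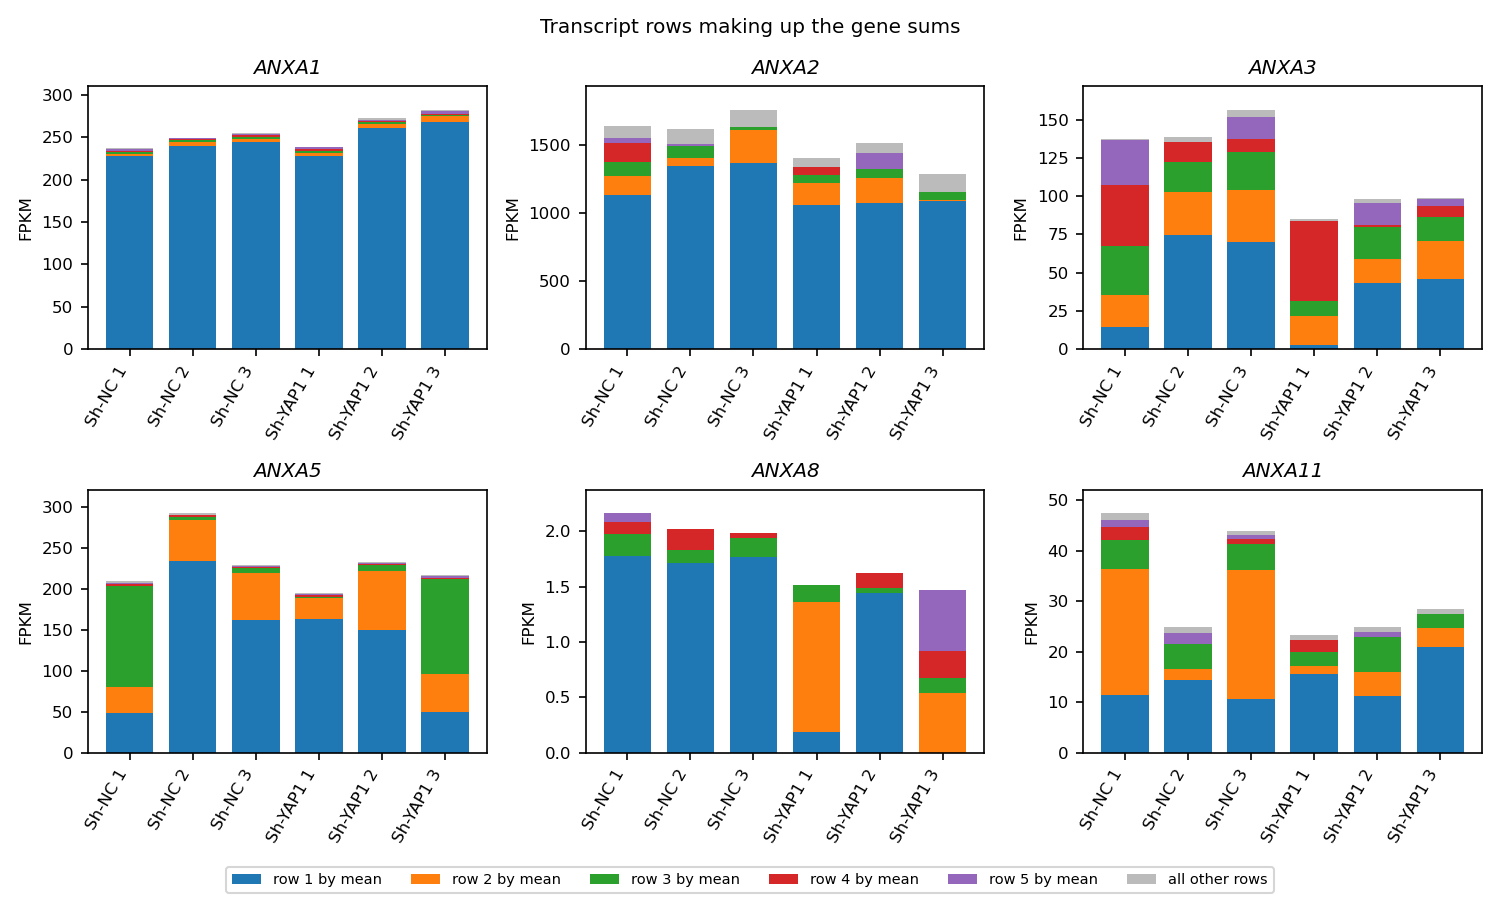
Transcript rows stacked to the gene value in FPKM (vertical axis, linear, from 0) for 6 annexins in each of the 6 libraries. Colours rank the rows of a gene by their mean over all libraries, and grey sums the rest. ANXA1 is nearly a single row, ANXA3, ANXA5 and ANXA8 exchange rows between libraries at a steadier total, and the ANXA11 bars of Sh-NC 1 and 3 are tall through one row at 25 and 25.45 FPKM.

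Genes that act with annexins were then described, by count and median, beside the 9 annexins. Each count can be read against the 3.38% of all genes that were called, the 29.4% without overlap and the 3241 of 14770 at an unadjusted p under 0.05. None of the 7 tested binding partners was called of 13 listed (2 at an unadjusted p under 0.05, limma, and 1 without overlap), with a median log2 fold change of -0.02. S100A10, the partner of ANXA2, was at 716, 726 and 777 FPKM in Sh-NC, against 614, 557 and 569 FPKM in Sh-YAP1. The groups were well separated, but S100A10 did not pass the test (log2 fold change -0.35, standard error 0.07, adjusted p = 0.0507, limma). The ratio of the S100A10 level to the ANXA2 level was 0.442 ± 0.0061 in Sh-NC and 0.415 ± 0.0411 in Sh-YAP1 (SD, n = 3 each), with overlap. S100A11, the partner of ANXA1, was at 684 to 739 FPKM in Sh-NC, against 704 to 710 FPKM in Sh-YAP1 (log2 fold change -0.02, adjusted p = 0.895, limma).

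The receptors of ANXA1 were nearly undetected. FPR2 was listed at 0 in every library, and FPR1 was at most 0.04 FPKM in Sh-NC, against 0.23 FPKM in Sh-YAP1. The calcium sensors that bind ANXA7 and ANXA11 were present. PDCD6 was at 21.0, 26.1 and 35.8 FPKM in Sh-NC, against 34.9, 39.2 and 41.5 FPKM in Sh-YAP1, with overlap (log2 fold change 0.49, adjusted p = 0.193, limma). SRI had a log2 fold change of 0.03 (adjusted p = 0.883, limma).

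Of 22 genes of plasma membrane repair, where several annexins act, 20 were tested and 1 was called, with 8 at an unadjusted p under 0.05 (limma) and 10 without overlap between the groups, 3 of them higher and 7 lower. The largest differences among these 7, named after their values were seen and not called, were in EHD1, CAV1 and CAPNS1, with log2 fold changes of -0.72, -0.57 and -0.56. CHMP3, a subunit of the ESCRT-III complex that pinches off damaged membrane, was up-regulated from 41.8, 39.7 and 40.2 FPKM to 51.6, 50.4 and 51.7 FPKM (log2 fold change 0.33, adjusted p = 0.0416, limma). The median of the list was -0.07, and 14 of the 20 were below 0. MYOF, a ferlin of the repair machinery, was at 165 to 177 FPKM in Sh-NC, against 181 to 187 FPKM in Sh-YAP1 (log2 fold change 0.12, adjusted p = 0.312, limma). None of the 12 tested scramblases, flippases and related genes of phosphatidylserine exposure was called (6 at an unadjusted p under 0.05, limma, and 8 without overlap), and their median was -0.05.

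ANXA2 and S100A10 assist plasminogen activation at the cell surface. Of the genes of this process that are reported here, 5 were tested and all were below 0 (median -0.09), with none called (1 at an unadjusted p under 0.05, limma, and 1 without overlap). PLAT, the tissue-type activator, was at 279, 235 and 178 FPKM in Sh-NC, against 104, 130 and 133 FPKM in Sh-YAP1. No Sh-YAP1 library reached the lowest Sh-NC library, but PLAT did not pass the test (log2 fold change -0.90, adjusted p = 0.0525, limma). Plasminogen itself (PLG) was listed at 0 throughout. Among genes of phospholipase A2 and eicosanoid synthesis, 1 of 6 tested was called (2 at an unadjusted p under 0.05, limma, and 3 without overlap) and the median was 0.32. PLA2G12A, a secreted phospholipase A2, was up-regulated from 2.58, 1.81 and 1.90 FPKM to 3.69, 3.58 and 3.73 FPKM (log2 fold change 0.60, adjusted p = 0.0497, limma). The calls of PLA2G12A, CHMP3 and KRT19 were not followed under other settings. All genes called fell from 499 to between 80 and 170 when 1 library was left out.

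**Figure D4:**
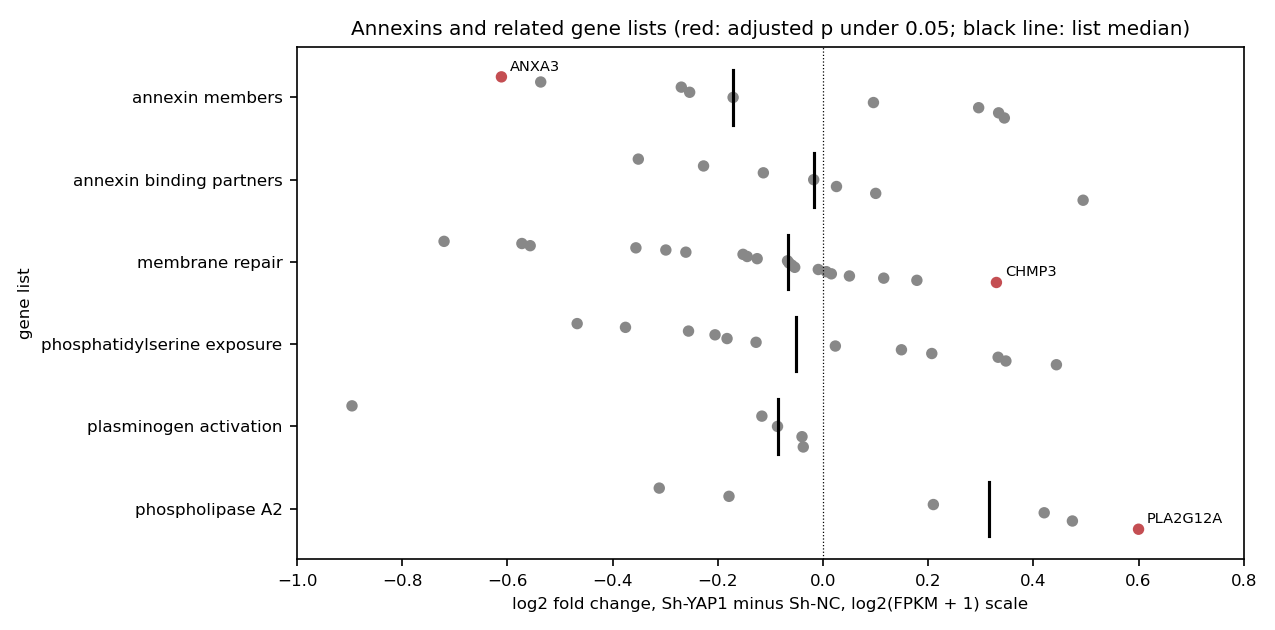
Log2 fold change (horizontal axis, Sh-YAP1 minus Sh-NC on the log2(FPKM + 1) scale) of the tested genes of each list (vertical axis). Each point is a gene, red where the adjusted p was under 0.05, and the black line is the list median. ANXA3, CHMP3 and PLA2G12A are the genes shown that were called, 1 in each of 3 lists, and the annexins lie on both sides of 0 between -0.61 and 0.34.

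YAP1 binds DNA through TEAD factors, whose core motif holds the letters GGAATG, read as CATTCC on the other strand. RefSeq promoter windows on GRCh38.p14, each from 250 bases before to 50 bases after a gene's start, were matched by symbol for 9 of the 10 annexins, with ANXA8 unmatched. The hexamer, searched on both strands, was in 0 of the 13 windows of these 9 genes, ANXA3 included, and in 14.03% of all 35116 windows. No match says only that these letters are not in this window.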

How the data were processed

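RNA-sequencing covered 3 Sh-NC and 3 Sh-YAP1 libraries of MDA-MB-231 cells. The authors deposited FPKM, 1 value per transcript row and library, with 2 decimals and 229420 rows per library. The submitters' processing notes name HISAT2 2.0, Bowtie 0.12.2 and hg19; the quantifier, annotation and strand setting are not given in the sources used here. Row numbers per annexin equal the transcript numbers of GENCODE 29, and positions printed are from that annotation (GRCh38), not from the files. Rows were summed by gene identifier, and 60401 of 60612 identifiers matched a symbol.

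Values were analysed as log2(FPKM + 1) with limma 3.58.1 (lmFit, eBayes with trend) in R 4.3.3, for 14770 genes averaging 0.5 FPKM or more and 77655 rows averaging 0.1 FPKM or more, with Benjamini-Hochberg adjustment over all features. On simulated data, 176 of 200 genes changed by 1.5 (log2) were called, with 3 false calls among 14770 genes. The changed genes were drawn from those of higher level, with noise independent between genes. That change is larger than any of the annexins (at most -0.61, ANXA3), so the simulation does not show how often differences of their size are called. Coding sequences and promoters were compared in Python 3.11.15, taking the APPRIS principal transcript of each gene.

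Named were all members, YAP1, every called gene of the related lists, and fixed partners and copies. MYOF and PLAT were fixed as well, whatever their values. Rows were described that held at least 10% of a member in the mean of either group. Added after their values were seen were 3 smaller ANXA2 rows, ANXA9, ANXA2P1, EHD1, CAV1 and CAPNS1. Of the lists, 2 genes, 1 of them in plasminogen activation, are not reported here, and list counts are without them. The members and lists were chosen with earlier results of these data known. Alternatives were the pseudocount, scaling, filter, trend, replicate block, row sums and leaving out each library.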

Additional observations from a re-analysis of the deposited data

How the results depend on the processing

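Depth is unknown, since only FPKM were deposited, and 3 libraries per group limit what can be called. ANXA3 kept its direction under all 17 alternatives (log2 fold change -0.65 to -0.50, adjusted p 0.0228 to 0.327, limma) and lost the call under 9 of them, 1 of which left out its row that changed most. The annexins called went from 1 to 0 without a filter, with the replicate block, without the row that changed most in each gene, and without any 1 library. All genes called went from 499 to 103 without a filter and to 80 to 170 when 1 library was left out. The median log2 fold change of the annexins went from -0.17 to -0.056 with quantile normalization, to 0.058 without the row that changed most, and to between -0.24 and -0.033 when 1 library was left out. Without the row that changed most, ANXA4 was at -0.15, ANXA8 at 0.54 and ANXA11 at 0.058, all reversed and none called in either fit, and ANXA1, ANXA6 and ANXA7 were at 0.29, 0.58 and 0.47, higher as before and not called. That row was chosen by its own difference between the groups, so these values say nothing about stability. Rows called went from 40 to 62 with a filter of 0.5 FPKM. The cause of these shifts was not tested, beyond that fewer libraries or other rows entered.

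Libraries of the 2 groups share replicate numbers. After the group means were subtracted, libraries of equal number correlated across genes at -0.028, 0.062 and 0.004, so no shared deviation was seen. The labels do not say whether libraries of equal number were handled together, and these correlations cannot decide it. With the replicate block 1 gene (2779 at an unadjusted p under 0.05), 0 annexins (5 at an unadjusted p under 0.05) and 0 rows were called, and ANXA3 had an adjusted p of 0.117 (limma).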
